A study of Mus musculus with 7 samples.

Results

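The 33 genes described here encode the pyruvate dehydrogenase complex, its kinases and phosphatases, and the mitochondrial pyruvate carrier. They also encode 12 enzymes or enzyme subunits of the citric acid cycle, and the linked malate, aspartate and pyruvate enzymes. Succinate dehydrogenase is among the cycle enzymes left out. The 33 were chosen by symbol, with earlier results of these data known. Their shares beside those of all tested genes are therefore not those of an unselected list. All 33 were in the table of 24421 genes, and all passed the filter on low counts. Transcripts were measured by RNA sequencing in the left atria of adult mice of the outbred CD1 strain, in 4 libraries labelled FOG2 Overexpression and 3 labelled WT (wild type). All 7 came from animals reared for 1 week without doxycycline, which the protocol calls DTG and NTG without expanding either name. The sources used here name neither the promoter nor the cell type behind the FOG2 transgene. Whether different animals gave the 7 libraries is not labelled, so a p-value below covers library-to-library spread, which may be technical in part. By the Xist and Y-linked transcripts given below, each group held libraries from different animals or pools. Zfpm2 encodes FOG2, a multi-zinc-finger partner protein of GATA factors, and the title of the series places it beside TBX5 and GATA4 in an atrial gene network.

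Pyruvate from glycolysis or lactate enters mitochondria through the carrier MPC and is turned into acetyl-CoA by the pyruvate dehydrogenase complex. In heart muscle this complex is the gate between carbohydrate and fatty acid use: PDK kinases phosphorylate and inactivate its E1 component, and PDP phosphatases reactivate it. The acetyl-CoA is then oxidised in the citric acid cycle, which supplies NADH to the respiratory chain, while aspartate aminotransferases and malate dehydrogenases carry cytosolic reducing equivalents into the mitochondrion.

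Transcripts of 9 of the 33 members were lower with FOG2 overexpression and 1 was higher, at an adjusted p under 0.05 (edgeR quasi-likelihood test, Benjamini-Hochberg over all 13295 tested genes). The 9 that fell were Pdha1, Dld and Pdhx of the complex, the kinase Pdk1, the phosphatase Pdp1, the carrier subunit Mpc2, the cycle enzyme Mdh2, the aminotransferase Got1 and the malic enzyme Me3. The 1 that rose was the kinase Pdk3. In either direction 10 members passed, where 4.84% of all tested genes did. That is 27.3% of members lower, where 3.29% of all tested genes were lower, and 1 member higher, where 1.55% of all tested genes were higher. In 19 members every overexpression library lay below every wild type library, a pattern found in 10.8% of all tested genes, and in Pdk3 every overexpression library lay above, as in 8.99% of tested genes. The median log2 fold change of the members was -0.33, against 0.02 over all tested genes, and 30 of the 33 values were below 0 with TMM scaling, against 11 of 33 when the libraries were scaled to sarcomere genes. In bulk atria, fewer cells of a type and less RNA per cell cannot be told apart.

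**Figure D1:**
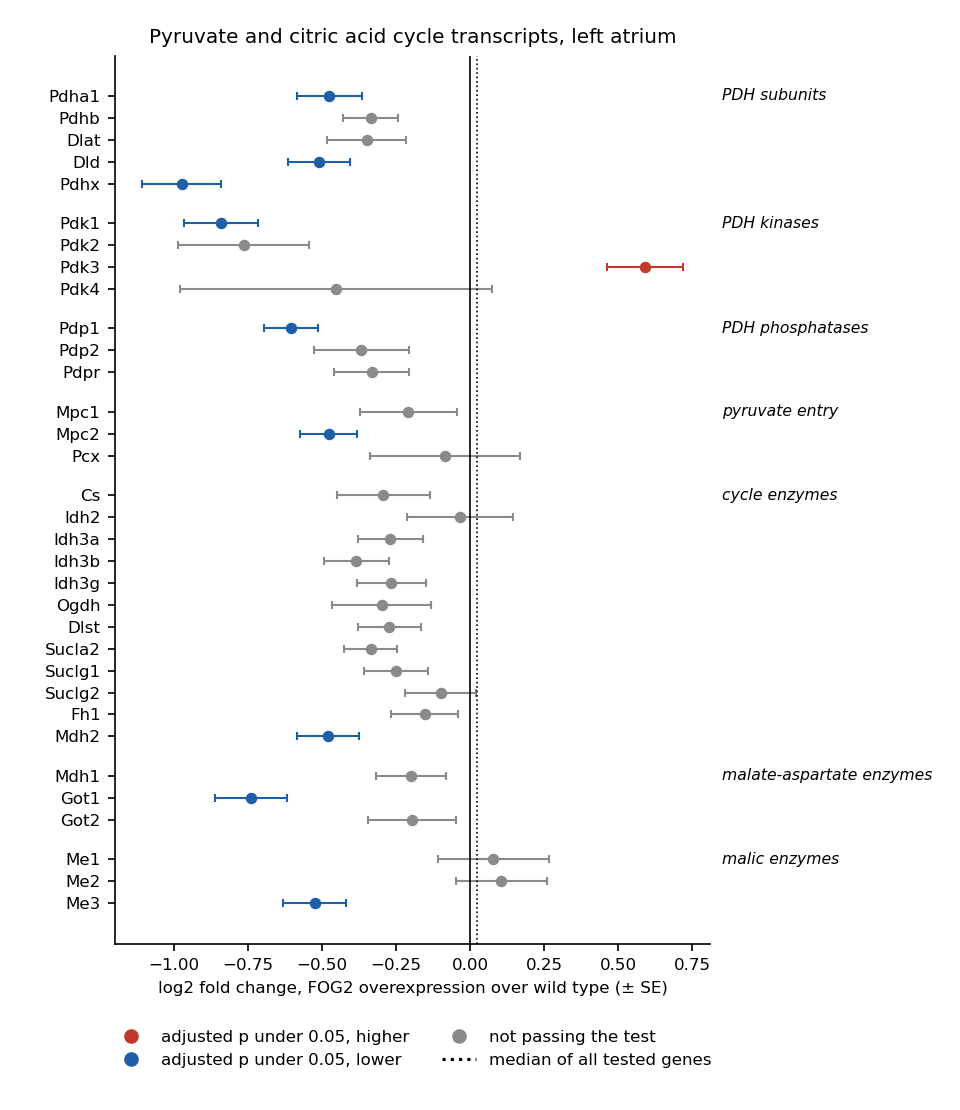
Log2 fold change of each of the 33 members, FOG2 overexpression (n = 4) over wild type (n = 3), with its standard error on the horizontal axis, grouped by role. Blue points passed the test as lower (9 genes), the red point as higher (Pdk3), grey points did not pass, and the dotted line is the median of all 13295 tested genes, 0.02.

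The libraries held 5562520 to 8655655 reads counted to genes, so that 1 count stood for 0.111 to 0.174 CPM (counts per 1000000 of the TMM-scaled library total), and the members had 47 to 22618 counts per library. Zfpm2 had 140.1, 222, 262 and 246 CPM in overexpression replicates 1 to 4, against 31.7, 30.9 and 29.4 CPM in wild type replicates 1 to 3 (log2 fold change 2.82 ± 0.22, SE, adjusted p = 2.05e-04), so every overexpression library was above every wild type library. Overexpression replicate 1 stood apart: it correlated with the other overexpression libraries at r = 0.947 to 0.949 across genes, and the lowest of the other correlations within a group was 0.977. It was the lowest overexpression library in 17 of the 33 members and the highest in 6. It also had the highest marker sums of all 7 libraries for fibroblasts (17016 CPM) and epicardium (836 CPM). Of the fibroblast markers, Postn was at 599 CPM there, against 46.7 to 97.7 CPM in the other libraries, while Dcn and Pdgfra were lowest there. Whether these differences are linked to the members' values was not tested. Overexpression replicate 1 and wild type replicate 2 held Y-linked transcripts (545 and 557 CPM summed over 4 genes) and almost no Xist, while the other 5 libraries held 819 to 1080.1 CPM of Xist; Pdha1, Pdk3 and Idh3g are X-linked.

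Cardiomyocyte transcripts were also lower in sum with FOG2 overexpression. All 14 cardiomyocyte markers were present. They summed to 106136 to 148234 CPM in overexpression and 171043 to 201435 CPM in wild type. The largest terms were Ttn (mean 56102 CPM in overexpression and 74321 in wild type), Myh6 (20870 and 27615) and Nppa (17566 and 25004), none of which passed. Of the 14 markers 5 were lower, where 3.29% of all tested genes were, and 0 higher. Their median log2 fold change was -0.40, and 13 values were below 0, with Des at 0.05 and Actn2 at -0.05. The 32 sarcomere genes in the table had a median of -0.36, with 9 lower, against 3.29% of all tested genes, and 0 higher. They shared genes such as Myl7 with the marker list. Smooth muscle and pericyte markers summed to 1258 to 1767 CPM in overexpression, against 482 to 587 CPM in wild type. Of these 10 markers 3 were higher, where 1.55% of all tested genes were. Their median log2 fold change was 0.94, with 9 values above 0 and 1 below. DESeq2 called 5 of them higher. Over all tested genes it called 3.46% higher and 5.12% lower. Most of the gap between the sums was Acta2, smooth muscle actin, at 798 ± 161 CPM in overexpression and 24.1 ± 10.8 CPM in wild type. Without it the sums were 578 to 732 CPM in overexpression, against 467 to 551 CPM in wild type. Fibroblast markers summed to 9939 to 17016 CPM in overexpression, against 7177 to 10643 CPM in wild type, with 0 of 11 passing in edgeR, 6 at an unadjusted p under 0.05 and 2 (Col1a1 and Col1a2) higher in DESeq2. Endothelial (median -0.06), macrophage (0.27), adipocyte (-0.30) and epicardial (0.42) markers had 0 genes passing in edgeR, 1, 1, 1 and 0 at an unadjusted p under 0.05 and 1, 0, 0 and 0 in DESeq2, none of the listed markers was at 0 in all 7 libraries, and the brown fat gene Ucp1 was at 0 in every wild type library. In overexpression replicate 2 Ucp1 was at 15.02 CPM, against 0.222 CPM or less in the other libraries. Adipoq (17.5 CPM) and Cfd (24.4 CPM) were also highest there, against at most 4.803 and 13.9 CPM elsewhere. Fabp4, Pnpla2, Plin4 and Lipe were highest in other libraries, and the adipocyte sum of replicate 2, 671 CPM, lay within the wild type range. Among overexpression libraries, replicate 2 was the highest for Pdk4, Idh3b and Me1. The part of cell makeup in the members' values was not tested.

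How far the members fell depended on what the libraries were scaled to. With library totals only, 4 members were lower (Got1, Pdhx, Pdk1 and Pdp1) and Pdk3 higher. Of all tested genes, 2.21% were then lower and 3.34% higher, and their median moved to 0.15. Among all genes 60.2% of calls were then higher, against 32.0% with TMM. With the sarcomere genes as the scale, so that values are relative to those genes, 3 members were lower and 1 higher, while 3788 of all 13295 genes were higher and 232 lower (94.2% of calls higher) and the median of all genes was 0.41. The 3 that were lower under that scaling too were Pdhx (-0.58, adjusted p = 0.0199), Pdk1 (-0.45, adjusted p = 0.0226) and Got1 (-0.35, adjusted p = 0.0425), and Pdk3 was higher (0.97, adjusted p = 0.00246). The members' median became 0.06 under it, below that of all genes, and 22 of the 33 values were above 0. Without overexpression replicate 1, 10 members were lower and 1 higher; without replicates 2, 3 and 4 the counts were 4 and 1, 5 and 0, and 6 and 0; without wild type replicates 1, 2 and 3 they were 4 and 0, 3 and 0, and 4 and 1. In the libraries that held Xist they were 7 and 0.

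**Figure D2:**
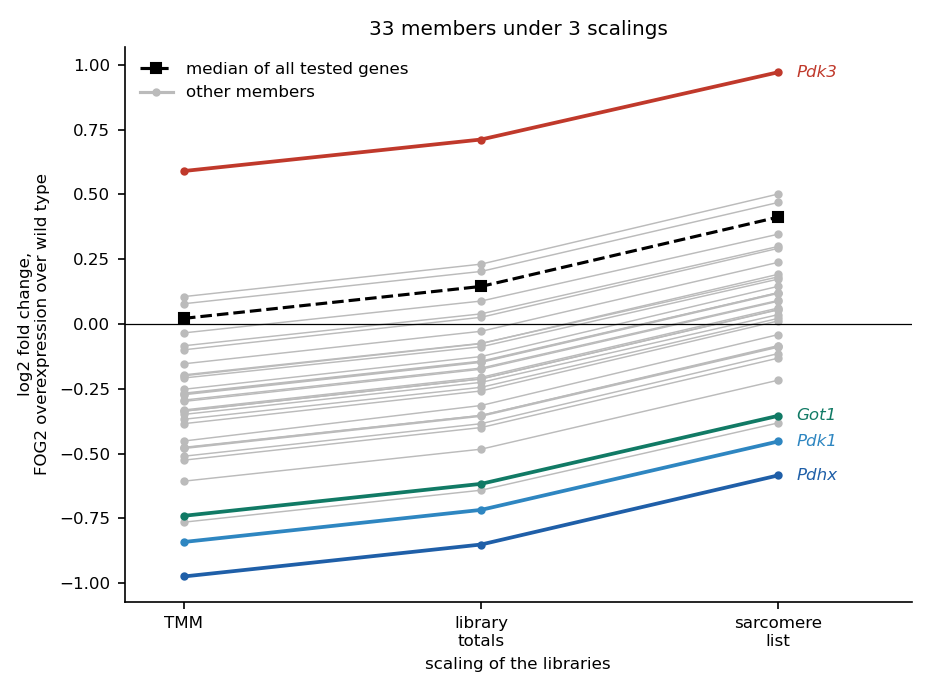
Log2 fold change, FOG2 overexpression (n = 4) over wild type (n = 3), of each member under 3 scalings of the libraries: TMM, library totals only, and the sarcomere list. All members shift up together with the median of all tested genes (dashed, 0.02, 0.15 and 0.41), and Pdhx, Pdk1, Got1 and Pdk3 are the 4 that passed the test under all 3.

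Upstream sequences are shown for these 4 genes because they passed the test under all 3 scalings. Each is the 250 bases before the most upstream RefSeq start (GRCm38, equal to mm10), 5′ to 3′ on the gene's strand: Pdhx at chr2:103073514-103073763, minus strand, Pdk1 at chr2:71872974-71873223, plus strand, Got1 at chr19:43524606-43524855, minus strand, and Pdk3 at chrX:93832151-93832400, minus strand. The Pdk3 window shares 51 bases with the gene's span in the GENCODE annotation, which starts farther upstream. Capitals mark matches, on both strands, to the letters GATA with A or T before and A or G after them, the T-box core GGTGTGA, the oestrogen-related receptor element AAGGTCA, the NRF1 site or the cyclic AMP element TGACGTCA.
Pdhx: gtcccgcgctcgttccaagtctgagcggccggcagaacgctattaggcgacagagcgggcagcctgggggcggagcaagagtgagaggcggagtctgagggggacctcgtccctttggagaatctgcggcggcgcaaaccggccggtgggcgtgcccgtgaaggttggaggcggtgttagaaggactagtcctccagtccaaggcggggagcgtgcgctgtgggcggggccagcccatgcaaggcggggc
Pdk1: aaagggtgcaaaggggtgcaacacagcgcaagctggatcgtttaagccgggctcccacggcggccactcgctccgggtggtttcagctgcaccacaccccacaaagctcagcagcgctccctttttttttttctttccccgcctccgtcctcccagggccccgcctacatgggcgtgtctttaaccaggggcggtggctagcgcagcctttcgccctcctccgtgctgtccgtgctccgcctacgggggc
Got1: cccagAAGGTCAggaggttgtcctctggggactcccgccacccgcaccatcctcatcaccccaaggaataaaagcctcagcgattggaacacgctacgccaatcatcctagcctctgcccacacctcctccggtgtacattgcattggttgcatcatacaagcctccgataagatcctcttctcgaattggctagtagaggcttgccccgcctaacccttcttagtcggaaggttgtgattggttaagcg
Pdk3: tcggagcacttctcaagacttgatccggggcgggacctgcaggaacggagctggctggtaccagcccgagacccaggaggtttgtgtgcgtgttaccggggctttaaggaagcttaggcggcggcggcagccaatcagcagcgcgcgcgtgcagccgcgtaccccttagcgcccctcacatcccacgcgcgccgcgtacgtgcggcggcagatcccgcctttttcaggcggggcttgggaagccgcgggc
The single match, AAGGTCA in Got1, begins 245 bases before the start; these letters are not in the other 3 windows. GC content was 68.4% for Pdhx, 64% for Pdk1, 54.4% for Got1 and 67.6% for Pdk3. Of the 30 members with a window, 6 held the GATA element (20%, against 16.8% of 10059 windows of tested genes), 2 the T-box core (6.67%, against 2.71%), 1 the AAGGTCA element (3.33%, against 2.56%), 1 the NRF1 site (3.33%, against 8.18%) and 3 the cyclic AMP element (10%, against 2.67%). The members with a T-box core were Idh3g and Dlst, neither of which passed the test. Those with the GATA element were Dld, Pdk4, Pdp2, Pcx, Ogdh and Mdh2. Of these 6, Dld and Mdh2 fell, where 27.3% of all 33 members did. A link between these elements and the calls was not tested.

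The subunits of the pyruvate dehydrogenase complex all had values below 0 with TMM scaling (with sarcomere scaling Pdhb and Dlat were above 0). Of the 5 subunits, 3 passed the test as lower, where 3.29% of all tested genes did. DESeq2 called 4 lower, adding Pdhb, where it called 5.12% of all tested genes lower. Pdhx, which encodes the E3-binding protein that tethers dihydrolipoamide dehydrogenase to the core, had 108, 77.6, 76.5 and 95.9 CPM in overexpression replicates 1 to 4, against 166, 180.2 and 183 CPM in wild type replicates 1 to 3. Every overexpression library lay far below the wild type range, and the fitted level was 50.9% of wild type (log2 fold change -0.97 ± 0.13, adjusted p = 0.00367), the largest decrease among the members. In the mm10 annotation Pdhx lies on chromosome 2 from 103021075 to 103073513 on the minus strand.

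Dld, the E3 dihydrolipoamide dehydrogenase that this complex shares with the 2-oxoglutarate dehydrogenase complex, had 354, 317, 288 and 330.5 CPM in overexpression, against 433, 477 and 467 CPM in wild type. The groups did not overlap (-0.51 ± 0.10, adjusted p = 0.0261). Pdha1, the E1 alpha subunit that carries the regulatory phosphorylation sites, had 899, 946, 938 and 1070.04 CPM in overexpression, against 1322, 1407 and 1290.02 CPM in wild type. Its groups were also apart (-0.48 ± 0.11, adjusted p = 0.0429). The part of its exon sequence that overlaps Map3k15 on the other strand is 16.1%, and without a stated strand setting those reads cannot be assigned.

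Pdhb, the E1 beta subunit that pairs with Pdha1, did not pass: it had 187, 195, 182 and 208 CPM in overexpression, against 229.7, 245 and 256 CPM in wild type (-0.34 ± 0.09, adjusted p = 0.0734). Its groups did not overlap all the same. Dlat, the E2 acetyltransferase core, had 209, 217, 265 and 281 CPM in overexpression, against 275, 338 and 315 CPM in wild type (-0.35 ± 0.13, adjusted p = 0.195), and here overexpression replicate 4 reached into the wild type range. The ratio of Pdhx to Dlat per kilobase of exon, a pair chosen after its values were seen, was 0.644, 0.445, 0.3597 and 0.424 in overexpression, against 0.7499, 0.664 and 0.721 in wild type. Without each library in turn, Pdhx passed every time (adjusted p 1.46e-04 to 0.0229). Dld missed the threshold without overexpression replicates 2, 3 or 4 or any 1 of the wild type replicates (up to 0.131), and Pdha1 without overexpression replicates 2 or 3 or any 1 of the wild type replicates (up to 0.195). The X-linked Pdha1 also missed it in the libraries that held Xist and with the Y-linked level as covariate (adjusted p = 0.0574).

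**Figure D3:**
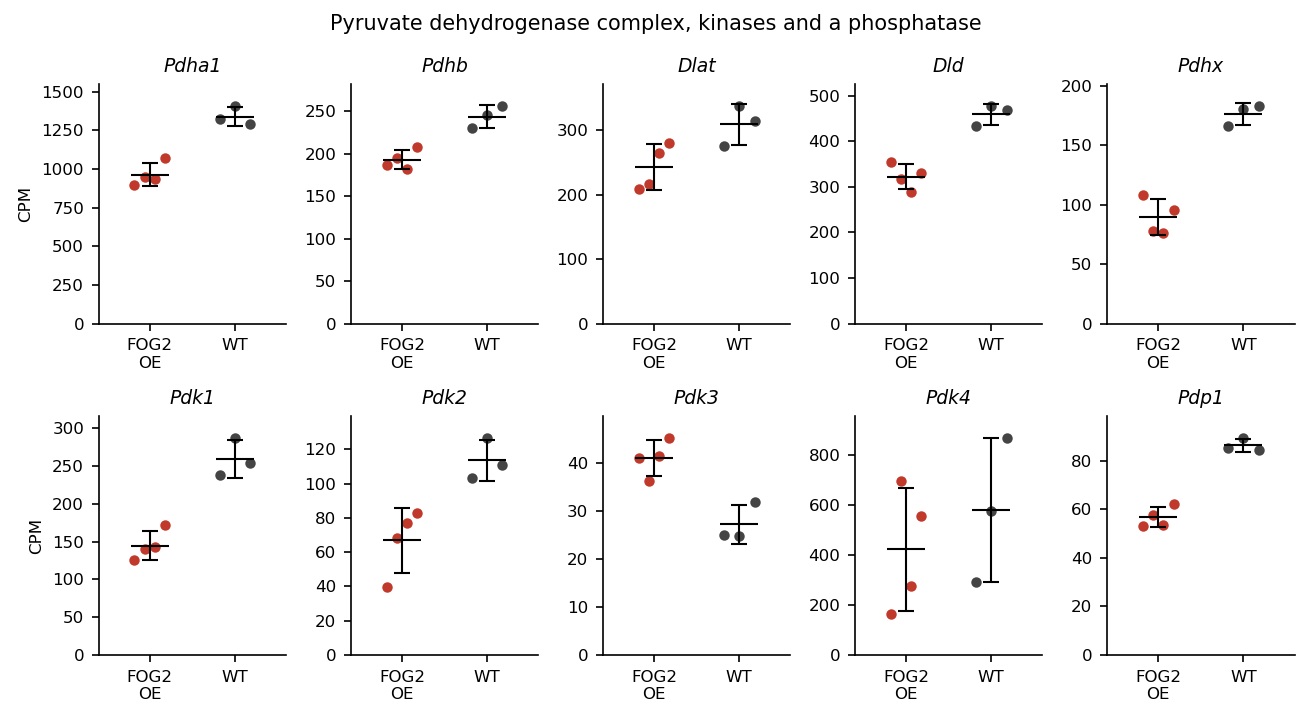
CPM per library of the 5 complex subunits, 4 kinases and the phosphatase Pdp1; points are libraries, bars the mean and SD, with FOG2 overexpression (n = 4) left and wild type (n = 3) right. Pdhx, Pdk1 and Pdp1 are lower and Pdk3 higher with no overlap, while Pdk4 spreads from 164 to 698 CPM within overexpression alone.

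The 4 kinases went different ways. Pdk1, known in other tissues as a target of the hypoxia factor HIF1, had 125, 139.9, 142 and 172 CPM in overexpression replicates 1 to 4, against 238, 287 and 254 CPM in wild type. The highest overexpression library stayed below the lowest wild type library, and Pdk1 fell to 55.8% of wild type (-0.84 ± 0.12, adjusted p = 0.00559). Pdk3, the isoform with the highest intrinsic activity, had 41.1, 36.2, 41.4 and 45.3 CPM in overexpression, against 24.9, 24.9 and 31.9 CPM in wild type. Here every overexpression library was above every wild type library, and Pdk3 rose 1.51-fold (0.59 ± 0.13, adjusted p = 0.0349).

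Pdk2, a broadly expressed isoform, had 39.9, 68.3, 76.9 and 82.8 CPM in overexpression, against 103, 127 and 111 CPM in wild type. All overexpression libraries were lower, but replicate 1 was far below the other 3 overexpression libraries, and the gene did not pass (-0.76 ± 0.22, adjusted p = 0.0948); without that library it did (log2 fold change -0.58, adjusted p = 0.00842). Pdk4, the isoform raised by fasting and by fatty acids through PPAR and FOXO factors, had 164, 698, 276 and 557 CPM in overexpression, against 294, 575 and 870.3 CPM in wild type. Its values overlapped widely in both groups (-0.45 ± 0.53, adjusted p = 0.688); the labels do not give the feeding state.

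Per kilobase of exon, Pdk4 was the main kinase transcript in every library, with 51.1, 78.7, 57.3 and 70.7% of the summed kinase level in overexpression replicates 1 to 4, against 53.4, 65.4 and 75.6% in wild type replicates 1 to 3. The Pdk3 share was 17.5, 5.604, 11.8 and 7.86% in overexpression, against 6.21, 3.87 and 3.798% in wild type, and the groups overlapped. With Pdk4 left out, a choice made after the values were seen, the Pdk3 share was 35.9, 26.3, 27.5 and 26.8% in overexpression, against 13.3, 11.2 and 15.6% in wild type, with no overlap. Set against Pdk1 alone, a pair chosen after its values were seen, the ratio of Pdk3 to Pdk1 per kilobase was 0.996, 0.787, 0.884 and 0.79999 in overexpression, against 0.319, 0.263 and 0.382 in wild type. Per kilobase of all annotated exons (7779 bases for Pdk1 and 2561 for Pdk3), the overexpression libraries thus held the pair at nearer to equal levels. In replicate 1 the pair was almost equal on that scale, while the counts there were 1128 for Pdk1 and 370 for Pdk3. Without each library in turn, Pdk1 passed every time (adjusted p 0.00196 to 0.0348), while Pdk3 missed the threshold without overexpression replicates 3 or 4 or wild type replicates 1 or 2 (up to 0.165), and in the libraries that held Xist (adjusted p = 0.07595, log2 fold change 0.53).

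Of the phosphatases, 1 of 3 passed as lower, where 3.29% of all tested genes did. Pdp1, the calcium-activated catalytic subunit that predominates in heart, had 53.3, 57.6, 53.8 and 62.3 CPM in overexpression, against 85.4, 89.5 and 84.4 CPM in wild type. The spread within each group was small and the groups were well apart (-0.61 ± 0.09, adjusted p = 0.006002), and it passed without each library in turn (adjusted p 0.00317 to 0.0411). Pdp2, the second catalytic subunit, averaged 14.3 ± 2.46 CPM in overexpression and 18.3 ± 1.78 CPM in wild type (SD, n = 4 and 3; -0.37 ± 0.16, adjusted p = 0.255), and the regulatory subunit gene Pdpr 53.7 ± 6.52 CPM in overexpression and 67.5 ± 8.09 CPM in wild type (-0.33 ± 0.13, adjusted p = 0.195). Pdp1 held 85.4, 82.2, 80.1 and 85.9% of the catalytic phosphatase level per kilobase in overexpression, against 84.7, 87.4 and 84.7% in wild type, so the makeup overlapped between groups while the Pdp1 level did not.

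Among the 3 pyruvate entry genes 1 passed as lower, where 3.29% of all tested genes did. Differences between these genes were not tested. Mpc2, a subunit of the mitochondrial pyruvate carrier, had 129, 125, 108 and 121 CPM in overexpression, against 162, 161 and 179.8 CPM in wild type. Its groups did not overlap (-0.48 ± 0.10, adjusted p = 0.0242). Its obligate partner Mpc1 had 10.8, 8.66, 8.18 and 10.7 CPM in overexpression, against 10.97, 10.2 and 12.2 CPM in wild type (-0.21 ± 0.17, adjusted p = 0.532), with overlap. The annotation holds a pseudogene named Mpc1-ps, and 23.1% of Mpc1 exon sequence overlaps 4930506C21Rik on the other strand, so its level is uncertain. Pcx, pyruvate carboxylase, which refills oxaloacetate, averaged 24.7 ± 6.997 CPM in overexpression and 26.04 ± 6.18 CPM in wild type (-0.08 ± 0.25, adjusted p = 0.889), with replicate 1 the lowest of the overexpression libraries at 14.9 CPM. Mpc2 missed the threshold without overexpression replicates 2, 3 or 4 or any 1 of the wild type replicates (adjusted p up to 0.0952).

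Within the cycle itself, 1 of 12 genes passed, against 3.29% lower among all tested genes. All 12 values were nonetheless below 0 (11 of them above 0 with sarcomere scaling), and in 7 the groups did not overlap. Over all tested genes, 46.8% of values were below 0 and 10.8% had every overexpression library below every wild type library. DESeq2 called 3 of the 12 lower, adding Idh3b and Sucla2, where it called 5.12% of all tested genes lower. The enzyme that fell was Mdh2, mitochondrial malate dehydrogenase, with 364, 338, 355 and 399 CPM in overexpression, against 474, 549 and 500.3 CPM in wild type. The highest overexpression library was below the lowest wild type library (-0.48 ± 0.10, adjusted p = 0.0337). It missed the threshold without overexpression replicates 2 or 3 or any 1 of the wild type replicates (adjusted p up to 0.167).

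The entry enzyme Cs, citrate synthase, had 685, 648, 770.5 and 933 CPM in overexpression, against 799, 1060.2 and 933 CPM in wild type, with overexpression replicate 4 inside the wild type range (-0.29 ± 0.16, adjusted p = 0.354). The NAD-dependent isocitrate dehydrogenase subunits stood at -0.27 ± 0.11 (Idh3a, the catalytic subunit), -0.38 ± 0.11 (Idh3b) and -0.27 ± 0.12 (Idh3g), with adjusted p of 0.225, 0.0867 and 0.252 and no overlap between groups in any of the 3. The NADP-dependent enzyme Idh2 had 594, 790.2, 859 and 1019.8 CPM in overexpression, against 729, 866 and 911 CPM in wild type, the overexpression libraries enclosing the wild type ones (-0.03 ± 0.18, adjusted p = 0.938).

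The E1 and E2 genes of the 2-oxoglutarate dehydrogenase complex did not pass, while the shared E3 gene Dld, given above, did. Ogdh, the E1 subunit, had 753, 837, 1032 and 1115 CPM in overexpression, against 1016, 1352 and 1079 CPM in wild type (-0.30 ± 0.17, adjusted p = 0.376), and Dlst, the E2 subunit, stood at -0.27 ± 0.11 (adjusted p = 0.204). Succinyl-CoA synthetase pairs the shared alpha subunit Suclg1 with a beta subunit that makes ATP (Sucla2) or GTP (Suclg2). Sucla2 had 428, 424, 419.96 and 439.95 CPM in overexpression, against 528, 546 and 547 CPM in wild type (-0.34 ± 0.09, adjusted p = 0.0692). These were tight and separate groups that missed the threshold in edgeR and passed it in DESeq2 (adjusted p = 2.28e-05). Suclg1 stood at -0.25 ± 0.11 (adjusted p = 0.245) and Suclg2 at -0.10 ± 0.12 (adjusted p = 0.69996). Sucla2 made up 92.8, 91.4, 91.98 and 91.2% of the beta subunit level per kilobase in overexpression, against 93.7, 92.7 and 92.6% in wild type. Fh1, fumarase, stood at -0.15 ± 0.11 (adjusted p = 0.4997).

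Among the enzymes linked to malate and aspartate, Got1 fell while Got2 and Mdh1 did not pass, where 3.29% of all tested genes were lower. Got1, cytosolic aspartate aminotransferase, had 312, 275, 315 and 361 CPM in overexpression, against 471, 556 and 556 CPM in wild type. All 4 overexpression libraries lay below the wild type range, and the level was 59.9% of wild type (-0.74 ± 0.12, adjusted p = 0.00908, or 0.0563 without wild type replicate 2). The mitochondrial form Got2 had 148, 134, 181 and 198 CPM in overexpression, against 167, 196 and 207 CPM in wild type (-0.20 ± 0.15, adjusted p = 0.509), with overlap; a pseudogene named Got2-ps1 and an overlap with Gm45760 on the other strand leave its level uncertain. The ratio of Got1 to Got2 per kilobase, chosen after its values were seen, was 3.996, 3.89, 3.304 and 3.46 in overexpression, against 5.36, 5.396 and 5.12 in wild type. Mdh1, cytosolic malate dehydrogenase, was the most abundant member per kilobase in both groups and had 2328, 2379.7, 2069 and 2499 CPM in overexpression, against 2591, 2613 and 2786 CPM in wild type (-0.20 ± 0.12, adjusted p = 0.396).

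Of the malic enzymes, which turn malate into pyruvate, the mitochondrial NADP-dependent Me3 fell. It had 53.1, 59.2, 67.8 and 59.1 CPM in overexpression, against 79.8, 92.4 and 85.8 CPM in wild type. The groups did not overlap (-0.53 ± 0.11, adjusted p = 0.0251), but Me3 missed the threshold without overexpression replicates 2 or 4 or any 1 of the wild type replicates (adjusted p up to 0.131). Me1, the cytosolic form, had 26.2, 47.4, 45.1 and 43.8 CPM in overexpression, against 37.9, 39.5 and 37.6 CPM in wild type (0.08 ± 0.19, adjusted p = 0.855), with replicate 1 below and the other 3 overexpression libraries above the wild type range. Me2, the mitochondrial NAD-dependent form, averaged 24.9 ± 3.14 CPM in overexpression and 23.1 ± 3.96 CPM in wild type (0.11 ± 0.15, adjusted p = 0.751). Per kilobase, Me3 made up 25.4, 20.1, 23.8 and 21.97% of the malic enzyme level in overexpression, against 29.6, 32.8 and 30.3% in wild type, with no overlap.

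**Figure D4:**
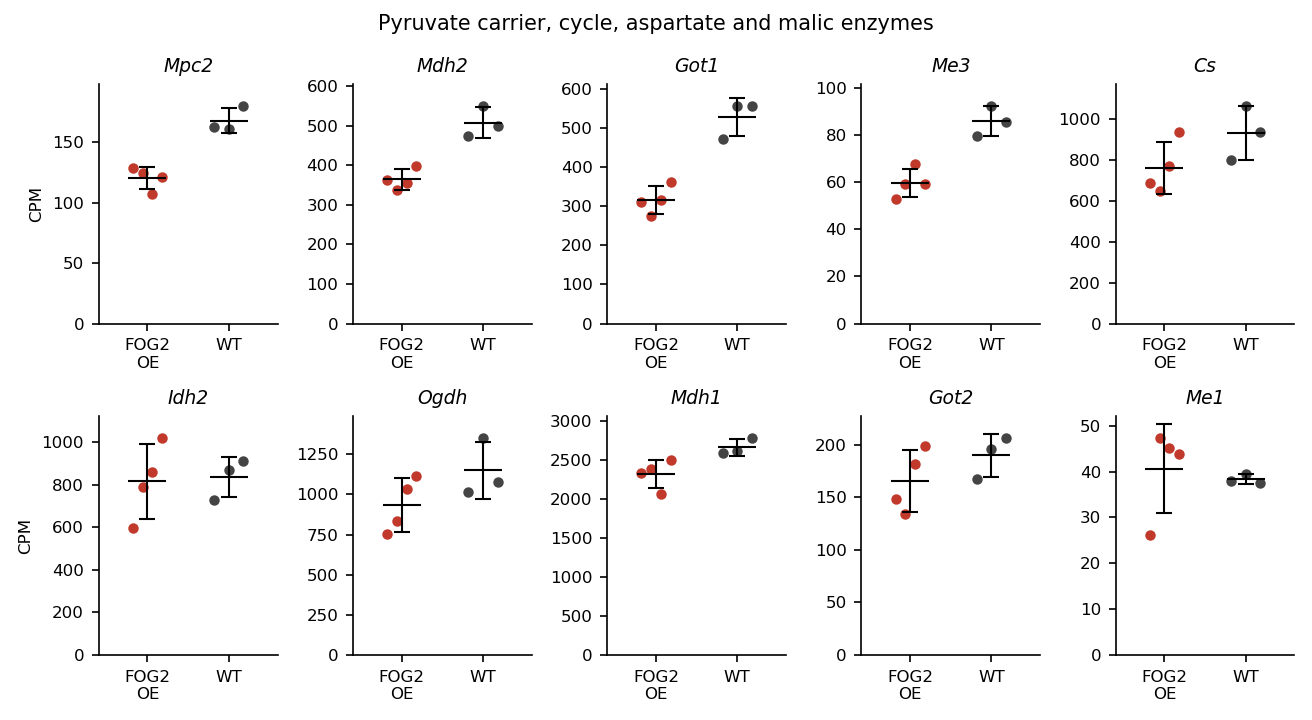
CPM per library of 10 members outside the pyruvate dehydrogenase group; points are libraries, bars the mean and SD, with FOG2 overexpression (n = 4) left and wild type (n = 3) right. Mpc2, Mdh2, Got1 and Me3, which passed the test, show no overlap, while Cs, Idh2, Ogdh, Got2 and Me1 overlap and Mdh1, which did not pass, is lower in every overexpression library.

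The most and least abundant members were much the same in both groups, while some in between changed rank by more than 1 place. Per kilobase of exon, Mdh1 led with 903 ± 70.6 CPM per kb in overexpression and 1037 ± 41.6 in wild type (SD, n = 4 and 3). Idh2 followed with 315 ± 68.1 in overexpression and 323 ± 36.6 in wild type, and Pdha1 with 258 ± 19.9 in overexpression and 359 ± 16.1 in wild type, so these 2 neighbours changed places, by less than the SD of Idh2 in either group. Pdha1 stood above its partner Pdhb, at 49.95 ± 2.89 in overexpression and 63.1 ± 3.404 in wild type. At the low end were Pdp2, with 2.51 ± 0.432 in overexpression and 3.21 ± 0.313 in wild type, and Me2, with 3.43 ± 0.434 in overexpression and 3.19 ± 0.546 in wild type, which also changed places. The largest moves in rank were those of Idh3g, the fifth highest in overexpression and the ninth in wild type, and Pdk4, the ninth in overexpression and the sixth in wild type; the rank changes were not tested.

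Genes that adjoin the pathway, 42 in 6 lists, gave 5 lower and 0 higher of 41 tested (3.29% and 1.55% of all tested genes), with a median log2 fold change of -0.24. Among lactate genes, Ldhb, the heart-type lactate dehydrogenase subunit, averaged 272 ± 42.97 CPM in overexpression and 403 ± 28.8 CPM in wild type (-0.56 ± 0.13, adjusted p = 0.04805), and Bsg, the chaperone of monocarboxylate carriers, 411 ± 16.3 CPM in overexpression and 564 ± 29.998 CPM in wild type (-0.46 ± 0.10, adjusted p = 0.0287). Both passed as lower. The lactate and pyruvate carrier Slc16a1, named after its values were seen, went the other way, with 395 ± 40.8 CPM in overexpression, against 284 ± 27.8 CPM in wild type (0.47 ± 0.12, adjusted p = 0.0566); every overexpression library was above wild type, and it passed as higher in DESeq2. Of 10 genes of lipoate synthesis and its iron-sulphur supply, which provide the cofactor of the E2 subunits, Bola3 (-0.46 ± 0.10, adjusted p = 0.0287) and Isca2 (-0.43 ± 0.10, adjusted p = 0.0435) fell. Ogdhl, a paralog of Ogdh expressed at a low level, fell to 5.19 ± 0.597 CPM in overexpression, against 10.7 ± 0.694 CPM in wild type (-1.03 ± 0.17, adjusted p = 0.0101); Pcca, a propionyl-CoA carboxylase subunit, stood at -0.54 ± 0.15 (adjusted p = 0.0864). Ogdhl missed the threshold without wild type replicates 1 or 2 (adjusted p up to 0.0616), Bola3, Isca2 and Ldhb without any 1 library other than overexpression replicate 1, and Bsg without any 1 other than overexpression replicates 1 or 2.

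The carrier and branched-chain lists had 0 genes passing in edgeR, with 3 mitochondrial carrier and 2 branched-chain genes at an unadjusted p under 0.05. DESeq2 called 1 and 2 of them lower, where it called 5.12% of all tested genes lower. Idh1, the cytosolic NADP-dependent isocitrate dehydrogenase, did not pass and stood at -0.34 ± 0.12 (adjusted p = 0.159). The 2-oxoglutarate carrier Slc25a11 stood at -0.45 ± 0.11 (adjusted p = 0.0517), and the aspartate-glutamate carrier Slc25a12 at -0.28 ± 0.10 (adjusted p = 0.188). In the branched-chain keto acid complex, the phosphatase Ppm1k had 93.7, 148, 182 and 208 CPM in overexpression, against 284, 281 and 299 CPM in wild type (-0.87 ± 0.23, adjusted p = 0.0721), with no overlap, and the E2 subunit Dbt stood at -0.40 ± 0.11 (adjusted p = 0.0759). The adjoining genes numbered 11 lower without overexpression replicate 1, 2, 1 and 2 without overexpression replicates 2, 3 and 4, and 1, 0 and 1 without wild type replicates 1, 2 and 3. The share of all tested genes called lower ran from 4.99% without overexpression replicate 1 to 1.34% without wild type replicate 2.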

How the data were processed

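The authors deposited whole-number counts per gene symbol for 7 left atrial libraries, one column per sample, with HTSeq-style summary rows. Per the submitters' processing notes, STAR, HTSeq 0.6.0 and DESeq2 were used for mm10, without a role for each; the sources used here name no strand setting or annotation, so antisense and overlapping genes may share reads. Per the labels' protocols, RNA was taken from atria in TRIzol, and ribosomal RNA was removed, although a label also calls the libraries polyA. Summary rows entered neither totals nor tests (23.4% to 30.5% of reads without a feature, 37.1% to 43.4% with several alignments, 0.101% to 0.254% ambiguous).

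Genes were filtered with filterByExpr (minimum count 10, total 15), scaled by TMM and tested by a robust quasi-likelihood F test (edgeR 4.0.16, R 4.3.3, two-sided, no covariate), with Benjamini-Hochberg adjustment over all 13295 tested genes and a threshold of 0.05. The SE is the log2 fold change over the root of F. CPM uses TMM-scaled totals. Exon lengths and positions are from GENCODE M21 (GRCm38), which matched 95.7% of symbols and all 33 members. Each length merges all annotated exons of a gene, not those of the transcripts present, so per-kilobase levels of different genes are approximate. Promoters are from RefSeq, which matched 30 members. All members are named; of adjoining lists, genes that passed and the 2 with the smallest p of each, except 1 gene that is not reported here. The members and lists were chosen with earlier results of these data known. Alternatives were RLE, library totals, sarcomere scaling, no filter, a filter on CPM (1 or more in 3 libraries), limma-voom (limma 3.58.1), DESeq2 1.42.0, a replicate block, the Y-linked level as covariate and each library left out; libraries with Xist alone were added after seeing the data.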

Additional observations from a re-analysis of the deposited data

Results flagged for a closer look

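In 2 of 34 genes examined (the 33 members and Zfpm2), 1 overexpression library lay far from the other 3, with a gap to its nearest neighbour, as a share of the group's range, above Dixon's critical value; chance flags about 1 in 20 such groups. Suclg1 had 220.1 CPM in overexpression replicate 3, below the other 3 overexpression libraries at 263 to 269.7 CPM. Me1 had 26.2 CPM in overexpression replicate 1, below the other 3 at 43.8 to 47.4 CPM.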

How the results depend on the processing

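Pdhx and Pdk1 passed under all 17 alternatives, Pdp1 under all but sarcomere scaling and Got1 under all but the fit without wild type replicate 2. Pdk3 passed under 11 of the 17, Dld, Mpc2, Mdh2 and Me3 under 8 each, and Pdha1 under 6. With library totals only, 4 members were lower, 1 adjoining gene lower and 1 higher, and of all genes 294 lower and 444 higher. With sarcomere scaling, 3 members were lower, 1 adjoining gene lower and 6 higher, and of all genes 232 lower and 3788 higher. DESeq2 called 13 members lower (adding Pdhb, Pdk2, Idh3b and Sucla2) and 1 higher, 12 adjoining genes lower and 1 higher, and 681 genes lower and 460 higher. In the libraries that held Xist, 7 members were lower and 0 higher, where 3.07% of all tested genes were lower and 2.19% higher. Without 1 library each, 3 to 10 members were lower and 0 to 1 higher, 0 to 11 adjoining genes lower and 0 to 1 higher, and 181 to 658 of all genes lower and 75 to 493 higher; the counts without overexpression replicate 1 were the highest of these for lower calls. The lowest member count in a library, 47, sets the coarsest counting precision.

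Replicate numbers are shared between groups only as labels: deviations of same-numbered libraries correlated at 0.0789, 0.0136 and 0.072, and of overexpression libraries 1 to 3, 2 correlated best with the wild type library of their own number. With the replicate block, 5 members were lower and 0 higher, 2 adjoining genes lower, and 253 genes lower and 129 higher.

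Members and adjoining genes that did not pass changed sign in some fits. With library totals only these were Pcx (0.039), Idh2 (0.089) and Suclg2 (0.026). With sarcomere scaling they were Pdhb (0.055), Dlat (0.036), Pdp2 (0.022), Pdpr (0.062), Mpc1 (0.17), Pcx (0.30), Cs (0.091), Idh2 (0.35), Idh3a (0.12), Idh3b (0.012), Idh3g (0.12), Ogdh (0.088), Dlst (0.12), Sucla2 (0.056), Suclg1 (0.15), Suclg2 (0.29), Fh1 (0.24), Mdh1 (0.19) and Got2 (0.18), and of the adjoining genes named in the text, the only ones examined for sign, Idh1 (0.058) and Slc25a12 (0.11). Me1 became -7.55e-04 with the replicate block. In the libraries that held Xist, Idh2 became 0.12, Suclg2 3.72e-04 and Me2 -0.065. Without 1 library each, Pcx ranged from -0.23 to 0.11, Idh2 from -0.16 to 0.09, Me1 from -0.00394 to 0.24 and Me2 from -0.00226 to 0.24. The changes with library totals and sarcomere scaling follow from the scaling, which moves all genes by about the same amount; the cause of the others was not tested.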
